A study of Mus musculus with 4 samples.

Results

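The imprinted domain of distal mouse chromosome 7 was examined for CTCF peaks around 9 genes: H19, Igf2, Ins2, Th, Ascl2, Kcnq1, Kcnq1ot1, Cdkn1c and Phlda2. Every peak summit within 10 kb of the span of one of these genes was taken, by location alone. Summits of different libraries within 100 bp were joined into 1 position, which gave 37 positions. All chromosome names of the lists, among them 2 copies of chromosome 11, gave 138181, and autosomes other than chromosome 11 gave 119359. The Inv:Del(CBS7-10), Inv, Del(CBS8-10) and Ins libraries held 29, 23, 21 and 30 of the summits at the 37 positions.

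The data are CTCF CUT&RUN peak lists of mouse embryonic stem cells (mESC), with 1 library per genotype. In CUT&RUN an antibody guides a nuclease to the protein of interest, here CTCF, and the DNA it cuts free is sequenced. All 4 lines share the genotype HoxB Del/Del(i9-13), 2 different deletions on the 2 copies of chromosome 11, and on the Del(i9-13) copy the insertion Ins(CBS5-10), an array of CTCF sites. To this the Inv:Del(CBS7-10) line adds both Inv(CBS5-10), the inversion of the array, and Del(CBS7-10). The Inv line adds Inv(CBS5-10) alone and the Del(CBS8-10) line adds Del(CBS8-10) alone. The Ins line has no further change, and the Del(CBS8-10) and Inv lines are compared with it. The labels do not say whether a line is a single clone. The genotypes differ on chromosome 11 and none of the named edits lies on chromosome 7. With 1 library per genotype no difference between lines has a replicate check, and no p-value is given for one. A CTCF peak does not measure expression, so the cell type label could not be checked against marker genes.

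CTCF is a zinc-finger protein that binds insulator DNA and halts cohesin, the ring complex that extrudes chromatin loops. At the H19 and Igf2 locus it is known to bind the unmethylated maternal control region upstream of H19, which keeps enhancers on the far side of H19 from reaching Igf2. On the paternal chromosome that region is methylated, CTCF does not bind, and Igf2 is expressed. The neighbouring Kcnq1ot1 cluster works differently: its control region is the promoter of the long non-coding RNA Kcnq1ot1, which is transcribed from the paternal chromosome and silences genes such as Cdkn1c and Phlda2 on it. The peak lists do not separate the parental chromosomes.

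The strength of a peak is given in 3 ways. The fold and the −log10 q are the authors' values from their peak caller and describe a peak within its own list. The pileup is the count at the summit, worked out from the authors' fold and −log10 p together. Whether it counts whole fragments or single sequenced ends is not given, so no unit is stated. The scaled pileup is the pileup divided by the library's median over 39356 positions that have a summit in all 4 lists on autosomes other than chromosome 11, so 1 is a typical shared CTCF position. Those medians were 113 in Inv:Del(CBS7-10), 21 in Inv, 29 in Del(CBS8-10) and 65 in Ins. The read depth is unknown. Distances are counted from the H19 start at 142578146 or from the Kcnq1ot1 start at 143296547, both at the high-coordinate end of the gene on chromosome 7 (mm10).

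H19, a long non-coding RNA expressed from the maternal chromosome and the host of miR-675, had 4 CTCF positions upstream of its start and none inside it. In the Ins library their summits lay at 142580330, 142580756, 142581417 and 142581771. They stood 2.18, 2.61, 3.27 and 3.63 kb upstream of the H19 start, with 426, 661 and 354 bp between neighbours. All 4 lie between the annotated genes, in the stretch where the H19 control region is known to lie. The summits of the different libraries fell within 25 bp of each other at every one of these positions. Of the 4 positions, 3 had a summit in all lists, and the farthest from H19 had none in the Inv list.

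At the site 2.18 kb upstream the pileup was 99 in Inv:Del(CBS7-10), 19 in Inv, 27 in Del(CBS8-10) and 72 in Ins. At the site 2.61 kb upstream it was 93 in Inv:Del(CBS7-10), 40 in Inv, 46 in Del(CBS8-10) and 77 in Ins. The site 3.27 kb upstream had 119 in Inv:Del(CBS7-10), 36 in Inv, 30 in Del(CBS8-10) and 69 in Ins. The raw pileup at each of these 3 sites was highest in Inv:Del(CBS7-10) and lowest in Inv or Del(CBS8-10), the libraries with the lowest median pileups. The site 3.63 kb upstream had 80 in Inv:Del(CBS7-10), 42 in Del(CBS8-10) and 67 in Ins. The sites were of nearly equal height in the Ins library, where the highest was 1.15 times the lowest. That ratio was 1.49 in Inv:Del(CBS7-10), 2.11 over the 3 sites of Inv and 1.70 in Del(CBS8-10). Which site was highest differed: 3.27 kb in Inv:Del(CBS7-10), and 2.61 kb in Inv, Del(CBS8-10) and Ins.

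**Figure D1:**
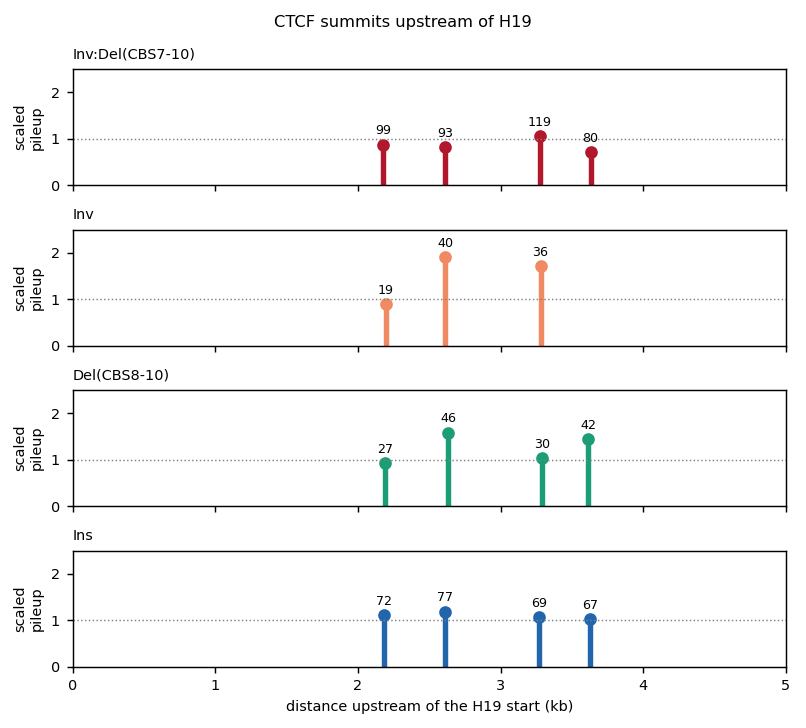
CTCF summits upstream of H19, 1 panel per library. The horizontal axis is the distance upstream of the H19 start in kb. The stem height is the scaled pileup (dotted line at 1, the median of shared positions) and the number over each stem is the pileup. The stems stand at the same 4 places in the Inv:Del(CBS7-10), Del(CBS8-10) and Ins panels, and the Inv panel lacks the one at 3.63 kb.

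In the Inv list a single peak interval, from 142581245 to 142581831, ran over the sites at 3.27 and 3.63 kb and carried 1 summit. The Del(CBS8-10) list had a separate interval for each of the 4 summits, whereas the Inv:Del(CBS7-10) and Ins lists had 2 intervals with 2 summits each. The 3.63 kb site had a −log10 q of 32.4 in Ins, and 25.1% of all Ins positions with a −log10 q from 20 to 50 had no summit in the Inv list.

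Scaled pileups at the H19 sites ran from 0.71 to 1.05 in Inv:Del(CBS7-10), 0.90 to 1.90 in Inv, 0.93 to 1.59 in Del(CBS8-10) and 1.03 to 1.18 in Ins. They were thus near the typical shared position in Inv:Del(CBS7-10) and Ins, while the 2.61 kb site lay at percentile 78.3 of shared positions in Inv and 75.8 in Del(CBS8-10). Fold lay between 6.16 and 9.12 in Inv:Del(CBS7-10), 5.26 and 10.8 in Inv, 5.11 and 8.64 in Del(CBS8-10), and 6.72 and 7.74 in Ins. The local background at the sites was higher than at shared positions in general. Such a background may take in the peaks of the sites themselves, which would raise it and lower the fold. This was not tested, so the values do not show a noisier region. At the 2.18 kb site the local background was 12.1 in Inv:Del(CBS7-10), 2.80 in Inv, 4.48 in Del(CBS8-10) and 9.08 in Ins. The median over shared positions was 5.20 in Inv:Del(CBS7-10), 0.840 in Inv, 1.60 in Del(CBS8-10) and 3.08 in Ins. Runs of 4 summits within 1.5 kb held 0.516%, 0.178%, 0.236% and 0.595% of the autosomal summits outside chromosome 11 in the Inv:Del(CBS7-10), Inv, Del(CBS8-10) and Ins lists. That window is just wide enough for the 4 H19 sites, so these shares do not test whether the sites are unusual. The Inv list had 3 summits at H19 and so no such run there.

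Igf2, which encodes a fetal growth factor expressed from the paternal chromosome, and Ins2, one of the mouse insulin genes, shared 2 CTCF positions that lay between them. Their Ins summits were 142672304 and 142675838, which are 94.2 and 97.7 kb from the H19 start, and both had a summit in every list. The first stood 5.49 kb from Igf2 and 6.35 kb from Ins2, the second 9.02 kb from Igf2 and 2.82 kb from Ins2. At the first, the −log10 q was 70.9 in Inv:Del(CBS7-10), 23.0 in Inv, 28.7 in Del(CBS8-10) and 41 in Ins. The second had 172 in Inv:Del(CBS7-10), 24.0 in Inv, 23.9 in Del(CBS8-10) and 75.7 in Ins. The one nearer to Ins2 was the stronger in scaled pileup in Inv:Del(CBS7-10) (1.64 against 0.92), Inv (1.33 against 1.29) and Ins (1.32 against 0.89), and the weaker in Del(CBS8-10) (1.07 against 1.21).

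Inside Igf2 a summit was called in the Inv:Del(CBS7-10) list alone, at 142655967, with a −log10 q of 13.1 and a pileup of 18. No list had a summit in any of the 4 Igf2 promoter windows that RefSeq gives, each from 250 bases before to 50 after a start. From 142611243, on the H19 side, to that summit no list had one, a stretch of 44.7 kb.

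Th encodes tyrosine hydroxylase, the rate-limiting enzyme of catecholamine synthesis. It held a position at 142894874, inside the gene and 317 kb from the H19 start. The pileup there was 246 in Inv:Del(CBS7-10), 71 in Inv, 52 in Del(CBS8-10) and 115 in Ins. In scaled terms this was 2.18 in Inv:Del(CBS7-10), 3.38 in Inv, 1.79 in Del(CBS8-10) and 1.77 in Ins, so the position stood above the typical shared position in each library. The authors' fold was 28.1 in Inv:Del(CBS7-10), 24.7 in Inv, 17.2 in Del(CBS8-10) and 25.9 in Ins. A second position 9.83 kb from the gene, at 142909824, was weaker, with scaled pileups of 0.85 in Inv:Del(CBS7-10), 0.62 in Inv, 0.48 in Del(CBS8-10) and 0.75 in Ins.

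Ascl2, a basic helix-loop-helix transcription factor needed for the placenta and expressed from the maternal chromosome, was the one member with no summit within 10 kb in some lists. The Inv and Del(CBS8-10) lists had their nearest summit 28.9 kb away. The Inv:Del(CBS7-10) list had 1 summit, at 142969275, with a −log10 q of 18.4 and a pileup of 23. The Ins list had 3 weak ones, at 142957904, 142968099 and 142969324, with −log10 q of 8.74, 3.61 and 6.69. Of these only the last was matched in another list, by the Inv:Del(CBS7-10) summit. Positions this weak were seldom found throughout: of all Ins positions with a −log10 q from 5 to 10, 9.94% had a summit in every list.

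Both of those Ascl2 summits fell in the promoter, 11 bases before the start in Inv:Del(CBS7-10) and 60 bases before it in Ins. The sequence is shown because it carries the only Ascl2 position found in more than 1 list. It is the RefSeq promoter of GRCm38.p6, minus strand, chr7:142969215-142969514, and capitals mark each summit with 5 bases on either side.
Ascl2: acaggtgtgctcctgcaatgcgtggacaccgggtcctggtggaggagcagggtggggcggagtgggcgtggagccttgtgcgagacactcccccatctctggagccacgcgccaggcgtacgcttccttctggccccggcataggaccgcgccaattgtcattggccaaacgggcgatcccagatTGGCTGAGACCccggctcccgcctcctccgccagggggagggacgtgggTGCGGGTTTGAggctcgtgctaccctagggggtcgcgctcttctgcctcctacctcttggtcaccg

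Kcnq1 encodes a voltage-gated potassium channel subunit and spans 320 kb, with Kcnq1ot1 lying inside it on the opposite strand. It had 18 positions, the most of any member, of which 6 had a summit in every list. Of these 6, 5 formed a group at the low-coordinate end of the gene, at 143114994, 143138952, 143151378, 143152473 and 143154010. They lie between -182 and -143 kb from the Kcnq1ot1 start, where a minus sign stands for the side towards H19. The first had the highest −log10 q of the 5 in each library, with 269 in Inv:Del(CBS7-10), 43.9 in Inv, 70.1 in Del(CBS8-10) and 156 in Ins.

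The position at 143151378 was close to it in pileup. It had 245 in Inv:Del(CBS7-10), 43 in Inv, 69 in Del(CBS8-10) and 148 in Ins, and 143114994 had 274 in Inv:Del(CBS7-10), 43 in Inv, 72 in Del(CBS8-10) and 157 in Ins. The position at 143152473, 1.10 kb further on, had the lowest −log10 q of the 5 in each library and scaled pileups of 0.88 in Inv:Del(CBS7-10), 1.00 in Inv, 1.07 in Del(CBS8-10) and 0.77 in Ins.

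Between and beside these 5, the same end of Kcnq1 held 6 positions that lacked a summit in at least 1 list. The one at 143116970 had a −log10 q of 26.6 in Inv:Del(CBS7-10), 4.33 in Inv and 9.77 in Ins. At 143124436 it was 22.6 in Inv:Del(CBS7-10), 2.75 in Inv and 19.4 in Ins, and neither had a Del(CBS8-10) summit. At 143133737 it was 7.07 in Inv:Del(CBS7-10), 7.71 in Del(CBS8-10) and 8.45 in Ins, with none in Inv. The Inv:Del(CBS7-10) and Ins lists alone held 143154256, at 23.9 and 8.25, while 143120154 was called in Inv only, at 3.04, and 143122466 in Ins only, at 4.66.

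Beyond 143154256 no library had a summit for 135 kb, up to 143289282. This empty stretch was the longest of the domain and takes in most of the 83.4 kb of Kcnq1ot1. Of all gaps between neighbouring positions on autosomes other than chromosome 11, 1.89% were at least as long. The stretch was picked as the longest of many, so this share does not measure how unusual it is. On the other side of the Kcnq1ot1 start, 53.4 kb were free of summits in every list, and 8.02% of all gaps were at least that long. The rest of Kcnq1 had only scattered weak summits there, 5 in all, each in a single list, with −log10 q between 4.38 and 8.74.

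**Figure D2:**
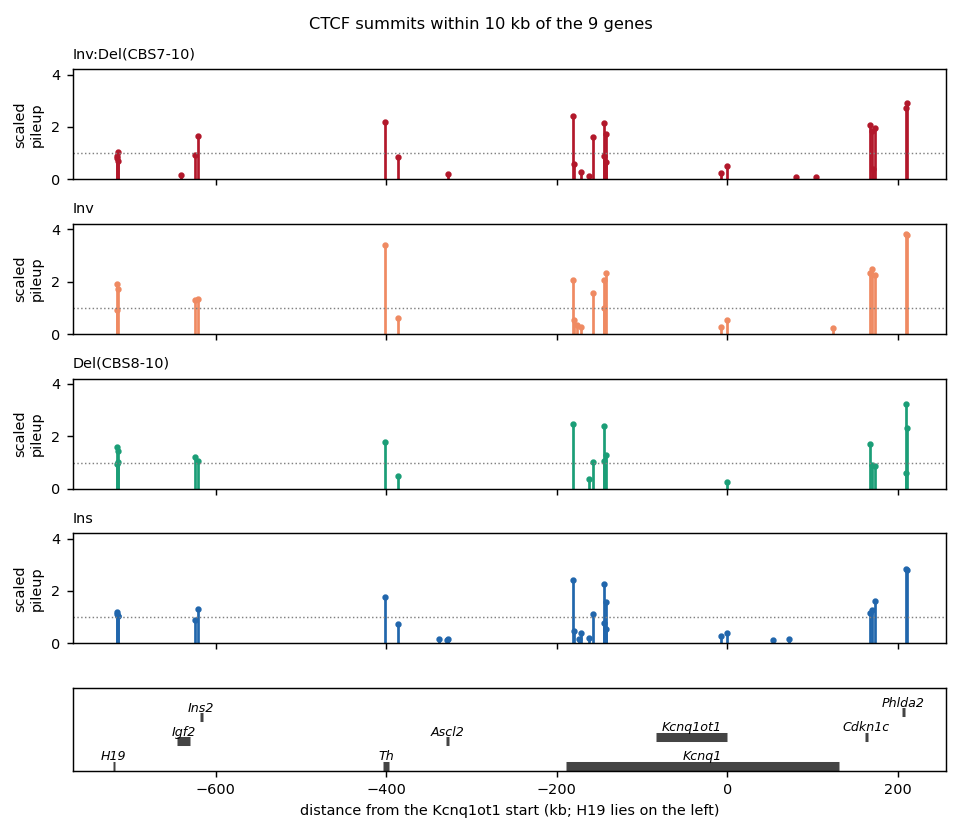
Map of the 37 positions, 1 panel per library, with the spans of the 9 genes at the bottom. The horizontal axis is the distance from the Kcnq1ot1 start in kb and the stem height is the scaled pileup (dotted line at 1, the median of shared positions). The tall stems are at Th, at the low-coordinate end of Kcnq1, at Cdkn1c and at Phlda2, and a stretch of 135 kb, from -142.3 to -7.3 kb, is empty in all 4 panels.

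Kcnq1ot1 carried a CTCF summit at its own promoter in every list. It lay 76 bases before the start in Inv:Del(CBS7-10), 73 in Inv, 161 in Del(CBS8-10) and 66 in Ins. The pileup was 57 in Inv:Del(CBS7-10), 11 in Inv, 7 in Del(CBS8-10) and 25 in Ins, and the −log10 q was 57.3 in Inv:Del(CBS7-10), 13.5 in Inv, 3.59 in Del(CBS8-10) and 22.9 in Ins. The Del(CBS8-10) summit was both the weakest and the one set apart, 85 bases from the nearest of the others.

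In scaled pileup this was the lowest of the 18 shared positions of the domain in each library, at 0.50 in Inv:Del(CBS7-10), 0.52 in Inv, 0.24 in Del(CBS8-10) and 0.38 in Ins. It ranked at percentile 24.7 of all shared positions in Inv:Del(CBS7-10), 22.4 in Inv, 1.59 in Del(CBS8-10) and 13.4 in Ins. A summit at a promoter was itself not unusual, since 16.5%, 13.3%, 11% and 17.9% of promoter windows on autosomes other than chromosome 11 held one in the Inv:Del(CBS7-10), Inv, Del(CBS8-10) and Ins lists. A second, weaker position lay inside Kcnq1ot1, at 143289282, which is -7265 bases from its start. Its −log10 q was 21.0 in Inv:Del(CBS7-10), 6.39 in Inv and 14.6 in Ins, and the Del(CBS8-10) list had no summit there.

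The Kcnq1ot1 promoter is shown because the summits of all 4 libraries fall in it. The sequence is RefSeq's for GRCm38.p6, minus strand, chr7:143296498-143296797. Capitals mark each summit with 5 bases on either side: the first block is the Del(CBS8-10) summit, at base 90, and the second holds the summits of Inv:Del(CBS7-10), Inv and Ins, at bases 175, 178 and 185.
Kcnq1ot1: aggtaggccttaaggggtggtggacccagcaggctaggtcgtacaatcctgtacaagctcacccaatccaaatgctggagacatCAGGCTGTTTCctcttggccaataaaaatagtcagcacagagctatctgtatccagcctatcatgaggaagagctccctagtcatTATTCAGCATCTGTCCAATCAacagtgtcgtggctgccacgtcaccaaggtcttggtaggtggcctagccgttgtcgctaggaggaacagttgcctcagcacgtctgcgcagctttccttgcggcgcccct

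A core CTCF motif, written 5′ to 3′ as CC, any 4 bases, GG, any 1 base and GGC and searched on both strands, was not among the letters of this window or of the Ascl2 window. RefSeq promoters were at hand for 5 of the 9 members, in 8 windows, namely for Igf2, Th, Ascl2, Kcnq1ot1 and Phlda2. Positions outside these windows, among them the H19 sites, were not searched because their sequence was not at hand. The motif was found in 1 of the 8, that of Th, which held no summit. Of all 32851 promoter windows 11.1% held it. Among windows with a summit on autosomes other than chromosome 11 the share was 21.2% in Inv:Del(CBS7-10), 23.7% in Inv, 24.0% in Del(CBS8-10) and 21.9% in Ins, so most such windows lacked these letters as well.

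Cdkn1c, an inhibitor of cyclin-dependent kinases expressed from the maternal chromosome, had 3 positions with a summit in every list, at 143464053, 143466485 and 143470140. They lie 168, 170 and 174 kb from the Kcnq1ot1 start on the side away from H19, and 2.99, 5.43 and 9.08 kb from the gene. The first had scaled pileups of 2.06 in Inv:Del(CBS7-10), 2.33 in Inv, 1.69 in Del(CBS8-10) and 1.15 in Ins. The second had 1.84 in Inv:Del(CBS7-10), 2.48 in Inv, 0.90 in Del(CBS8-10) and 1.29 in Ins. At 143470140 it was 1.97 in Inv:Del(CBS7-10), 2.24 in Inv, 0.86 in Del(CBS8-10) and 1.63 in Ins. All 3 were above the typical shared position in Inv:Del(CBS7-10), Inv and Ins, and 1 of them was in Del(CBS8-10). Fold at these positions ran from 8.41 to 13.0 in Inv:Del(CBS7-10), 9.08 to 11.7 in Inv, 5.44 to 11.9 in Del(CBS8-10) and 7.31 to 12.4 in Ins. The local background at 143466485 was 23.9 in Inv:Del(CBS7-10), 4.84 in Inv, 3.96 in Del(CBS8-10) and 10.6 in Ins, and it too may take in neighbouring peaks. A weak summit at 143466788, with a −log10 q of 2.82, was called in the Inv:Del(CBS7-10) list alone. Both 143464053 and 143466485 lie inside another annotated gene, Gm33663, and 143470140 is nearer to Slc22a18 than to Cdkn1c.

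Phlda2, a pleckstrin-homology protein that restrains placental growth and is expressed from the maternal chromosome, had a pair of positions with the highest pileups of the 37 in Inv:Del(CBS7-10), Inv and Ins. The pair lay at 143506048 and 143506879, 2.90 and 3.73 kb from the gene and 831 bp apart. In Del(CBS8-10) the first of them was highest, and the second stood below the Kcnq1 positions 143114994 and 143151378. At the first the pileup was 308 in Inv:Del(CBS7-10), 80 in Inv, 94 in Del(CBS8-10) and 185 in Ins. The second had 329 in Inv:Del(CBS7-10), 79 in Inv, 67 in Del(CBS8-10) and 183 in Ins. Their scaled pileups lay between 2.31 and 3.81, and the lowest percentile among all shared positions was 92.5, at the second in Del(CBS8-10). A summit between them, at 143506320, was called in the Del(CBS8-10) list alone with a −log10 q of 2.61.

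**Figure D3:**
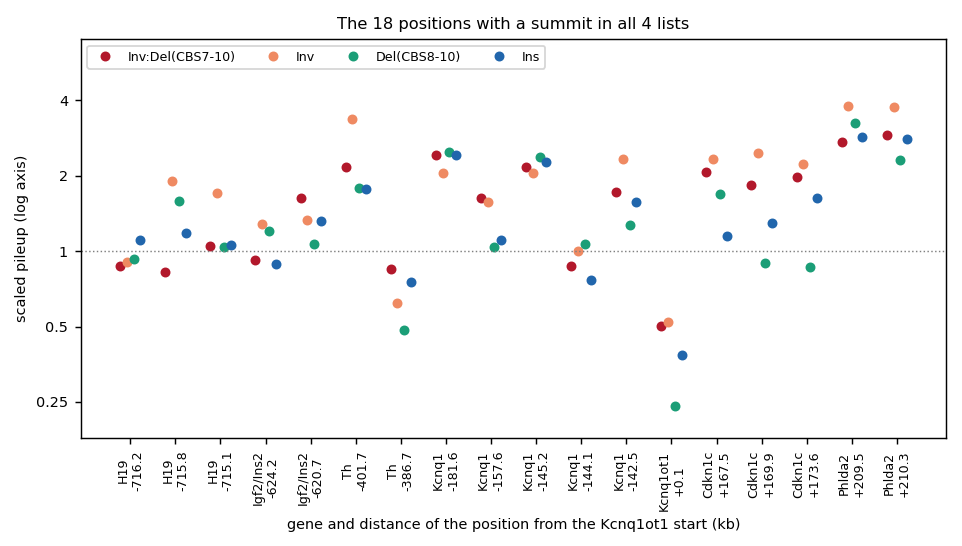
Scaled pileup at the 18 positions with a summit in all 4 lists, on a log axis, ordered from H19 to Phlda2 and labelled with the gene and the distance from the Kcnq1ot1 start in kb. Each point is 1 library, and the dotted line at 1 is the median of shared positions. The Kcnq1ot1 promoter is lowest, at 0.24 to 0.52, and the 2 Phlda2 positions lie between 2.31 and 3.81.

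Of the 37 positions, 18 (48.6%, 95% Wilson interval 33.4 to 64.1, counting error only) had a summit in all 4 lists, beside 33% of positions on autosomes other than chromosome 11. A further 5 were in 3 lists, 2 were in 2 lists and 12 in 1 list. The 12 found once had −log10 q between 2.61 and 13.1, with 4 of them in Inv:Del(CBS7-10), 2 in Inv, 1 in Del(CBS8-10) and 5 in Ins. Among the 9 positions with a −log10 q of at least 50 in Ins, all 9 were shared. Over all Ins positions the share was 96.6% from 50 to 100 and 98.9% from 100 upwards, so that count is close to the background. From 20 to 50 it was 8 of 9 beside 70.3%, from 10 to 20 it was 1 of 3 beside 29.5%, and below 10 it was 0 of 9 beside 3.86% under 5 and 9.94% from 5 to 10. Ordered by the Inv:Del(CBS7-10) list instead, the class from 20 to 50 had 2 of 7 members shared, beside 46.6%, so the members were not above the background in each class. Neighbouring positions share fragments and are not independent. Among the 18 shared positions the summits of the 4 lists spread over 16 bp at the median and 95 bp at most, which was at the Kcnq1ot1 promoter.

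A summit within 10 kb was found for 9 of the 9 genes in Inv:Del(CBS7-10), 8 in Inv, 8 in Del(CBS8-10) and 9 in Ins. The share of all protein-coding and lncRNA genes on autosomes other than chromosome 11 was 79.8% in Inv:Del(CBS7-10), 71.9% in Inv, 74.9% in Del(CBS8-10) and 78.8% in Ins. Of 27 other genes chosen from the same stretch of chromosome 7, from Brsk2 to Dhcr7, 27 had one in Inv:Del(CBS7-10), 26 in Inv, 26 in Del(CBS8-10) and 26 in Ins. The exception was Mir483, a microRNA gene inside Igf2, which had a summit in Inv:Del(CBS7-10) only. Of genes of any type 71.1%, 62.5%, 65.9% and 70% had one in those libraries. Few of the 27 are microRNA genes, so the higher shares of protein-coding and lncRNA genes given above are the closer reference. The highest −log10 q in Ins among these 27 was 446, at Osbpl5, a lipid transfer protein gene, followed by 163 at a peak near both Nadsyn1 and Dhcr7, a NAD synthetase and a cholesterol synthesis gene. Many of these genes share peaks with each other or with the 9 members.

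The 10 kb distance left out strong neighbours. The farthest positions inside it were those 9.83 kb from Th, 9.08 kb from Cdkn1c and 9.02 kb from Igf2. Just outside, 11.5 and 11.9 kb from Kcnq1, a pair of positions had −log10 q of 61.8 and 117 in Inv:Del(CBS7-10), 13.8 and 23.7 in Inv, 19.1 and 27.6 in Del(CBS8-10), and 39.0 and 99.3 in Ins. The next was 15.8 kb from Cdkn1c, with 25.4 in Inv:Del(CBS7-10), 12.8 in Del(CBS8-10), 23.9 in Ins and no summit in Inv.

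Set against each other at the 18 shared positions, nearly all differences lay within the range of those at all shared positions. For Del(CBS8-10) against Ins the median log2 difference in scaled pileup was -0.07, beside 0.08 over all 39356 shared positions, and 17 of 18 lay between the 5th and 95th percentiles of those. For Inv against Ins the median was 0.45, beside 0.15 over all and 0.17 on chromosome 7, and 18 of 18 lay within. For Inv:Del(CBS7-10) against Inv it was -0.19, beside -0.14 over all, again with 18 of 18 within. The Ins library enters the first and second comparison and the Inv library the second and the last, so these are not independent.

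The positions with the widest differences were at Cdkn1c, H19 and Th. At 143464053 near Cdkn1c the scaled pileup was 2.33 in Inv and 1.15 in Ins, a log2 difference of 1.02 (exact binomial 95% interval of the 2 pileups 0.47 to 1.55, counting error only). This was the single position of the 18 at least 2-fold higher in Inv than in Ins, beside 9.47% of all shared positions, and none was 2-fold lower, beside 6.48%. At the H19 site 2.61 kb upstream it was 0.82 in Inv:Del(CBS7-10) and 1.90 in Inv, a difference of -1.21 (-1.76 to -0.64). That was the single position 2-fold lower in Inv:Del(CBS7-10) than in Inv, beside 9.45%, and none was 2-fold higher, beside 4.41%. Between Del(CBS8-10) and Ins no position passed 2-fold, beside 3.67% higher and 1.31% lower. The largest there was at 143470140 near Cdkn1c, with 0.86 in Del(CBS8-10) and 1.63 in Ins, a difference of -0.92 (-1.61 to -0.28).

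Counting error alone was large at this depth. The intervals take the counts as independent and would be too narrow if both ends of a fragment were counted. The interval of the log2 difference was between 0.74 and 2.70 wide for Del(CBS8-10) against Ins, 0.78 and 2.25 for Inv against Ins, and 0.73 and 2.03 for Inv:Del(CBS7-10) against Inv. For Del(CBS8-10) against Ins it left out the median of all shared positions at 1 of the 18 positions, beside 10.7% of all shared positions. For Inv against Ins this was 3 of 18, beside 25.5%, and for Inv:Del(CBS7-10) against Inv 2 of 18, beside 24.3%. At the Kcnq1ot1 promoter the difference between Del(CBS8-10) and Ins was -0.67, with an interval of -2.13 to 0.58, so no difference was detectable there. Within Th, at 142894874, it was 0.93 (0.49 to 1.37) for Inv against Ins and -0.64 (-1.02 to -0.23) for Inv:Del(CBS7-10) against Inv, while Del(CBS8-10) and Ins differed by 0.02 (-0.48 to 0.50).

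**Figure D4:**
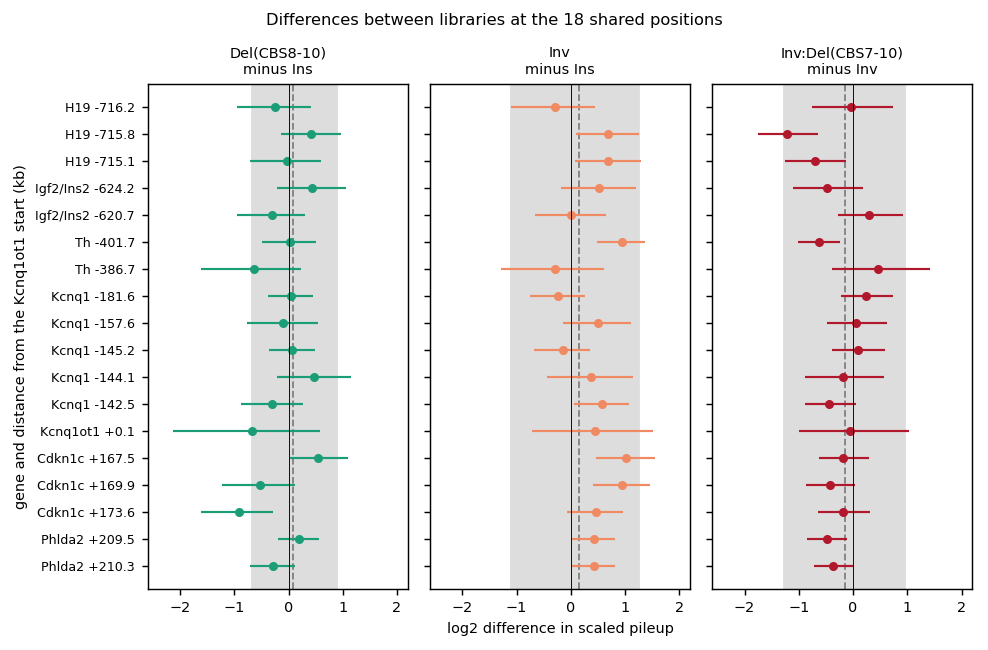
Log2 difference in scaled pileup at the 18 shared positions, 1 panel per comparison, ordered from H19 at the top to Phlda2 at the bottom. Points are single positions with their exact binomial 95% interval (counting error only), the grey band runs from the 5th to the 95th percentile of all 39356 shared positions and the dashed line is their median. Apart from 1 position near Cdkn1c in the panel of Del(CBS8-10) minus Ins, at -0.92, every point lies inside the grey band.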

How the data were processed

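CTCF CUT&RUN peaks of 4 mESC lines were analysed, 1 library each. Per the submitters' processing notes, MACS2 2.2.7.1, Bowtie2 2.4.5, bedtools 2.30.0, cutadapt 4.1 and Picard were used, with build mm10. Their settings, and whether a control was used, are not given in these sources. The deposited lists name 2 copies of chromosome 11. Per peak, the authors deposited a score, a fold over local background, a summit offset, a −log10 p-value and also a −log10 q-value.

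The pileup and background were recovered from the fold and −log10 p, taking the fold as both plus 1 (tolerance 0.001, wider for strong peaks). The step was tested on simulated data made with the same formula. That test checks the arithmetic and not the formula itself. Summits were printed counted from 1 and joined by single linkage at 100 bp; where a list had several in a position, the highest −log10 q was used. Genes and promoters came from RefSeq GRCm38.p6, the assembly of mm10. Python 3.11.15, NumPy 2.4.6, pandas 2.3.3, SciPy 1.17.1 and Matplotlib 3.10.9 were used. The 9 members and the list of 27 neighbours were chosen with earlier results of these data known. Named were all positions of the members, and of the neighbours those lacking a summit in a library and the 3 with the highest −log10 q in Ins. Slc22a18 was named besides, for its place beside a Cdkn1c position. Alternatives were other peak filters, matching and gene distances, levels and scalings, and another motif.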

Additional observations from a re-analysis of the deposited data

How the results depend on the processing

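The genome background was 1.327 in Inv:Del(CBS7-10), 0.19 in Inv, 0.553 in Del(CBS8-10) and 0.858 in Ins, and the read depth is unknown. With the 20000 strongest peaks of each list, the members kept 11 positions in Inv:Del(CBS7-10), 14 in Inv, 9 in Del(CBS8-10) and 9 in Ins, and the H19 sites kept 0 in Inv:Del(CBS7-10), 2 in Inv, 1 in Del(CBS8-10) and 0 in Ins. Then 6 of 14 positions were shared by all lists (42.9%), beside 45.9% over all positions. The share was 15 of 25 at a −log10 q of at least 10 (60%, beside 39.1%), 18 of 36 with summits within 250 bp (50%, beside 36.2%) and 14 of 31 at 5 kb from the gene (45.2%, beside 33%). It was 17 of 32 by any overlap (53.1%, beside 40.5% on chromosome 7) and 20 of 35 without the Inv library (57.1%, beside 43.1%). Within 2 kb of gene ends, 2 of the 9 member genes had a summit in Inv:Del(CBS7-10), 1 in Inv, 1 in Del(CBS8-10) and 2 in Ins. Of all protein-coding and lncRNA genes 46.2% had one in Inv:Del(CBS7-10), 37.4% in Inv, 36.9% in Del(CBS8-10) and 46.7% in Ins. Of the 27 neighbours 18 had one in Inv:Del(CBS7-10), 15 in Inv, 14 in Del(CBS8-10) and 15 in Ins, beside 38.3%, 30.4%, 30.7% and 38.5% of genes of any type in these libraries. The higher protein-coding and lncRNA shares just given are the closer reference for these neighbours too. The motif CC, any 3 bases, AG, any 2 bases and GGC was in 0 of the 8 member promoters, beside 8.61% of all. With the authors' unscaled fold in place of the scaled pileup, the median difference was -0.42 for Del(CBS8-10) against Ins, beside -0.38 over all shared positions. It was -0.00 for Inv against Ins, beside -0.30, and 0.18 for Inv:Del(CBS7-10) against Inv, beside 0.52. Under this fold the position 143464053 differed by 0.23 for Inv against Ins and the H19 site 142580756 by -0.59 for Inv:Del(CBS7-10) against Inv, values to be read against those shifted medians. The cause of the other changes was not tested. No paired analysis was possible because each genotype has 1 library.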
